A study of Mus musculus with 6 samples.

Results

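The interferon response genes examined here are 47 genes listed for their induction by interferons. They were measured in mouse Th2 cells on 6 Affymetrix arrays. A gene was read by 1 probe set naming it alone, and where several did, by the one of highest mean log2 signal. This gave 44 of the 47 genes, among 18194 genes on the array. Ifi44, Isg15 and the entry Psme1x had no such probe set and were left out.

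All cells were splenic CD4 T cells of C57BL/6 mice, stimulated with anti-TCR mAb and anti-CD28 mAb under Th2 conditions. Th2-4th cells were fully developed Th2 cells. They had been rested for 2 days without added cytokines and restimulated with anti-TCR mAb, IL-2 and anti-IL-4 mAb for 5 days, in a cycle repeated 3 times. Th2-1st cells were effector Th2 cells after 5 days with IL-4 at 100 U/ml and IL-2 at 25 U/ml. The cultures thus differ both in age and in whether IL-4 was supplied or blocked. Each culture had 1 array of cells with GATA3 siRNA after 4 h of anti-TCR stimulation, 1 array of cells with control siRNA after the same stimulation, and 1 array of cells with control siRNA and no stimulation. All 6 arrays came from cells nucleofected with an siRNA, with 24 h recorded from siRNA to harvest. Thus no array held untransfected cells, and GATA3 siRNA was applied only to stimulated cells. Below, "with GATA3 siRNA" and "with control siRNA" are the stimulated arrays, and "without stimulation" is the unstimulated control siRNA array.

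The values are linear array signals, and the median signal of an array lay between 61.8 and 74.2. With 1 array for every condition, differences could not be checked against replicates and are given without p-values. A ratio over 2-fold or under 0.5-fold counts as a call, that is a log2 ratio above 1 or below -1. The spread printed beside a log2 ratio is a robust SD of that ratio among the genes nearest in signal, which includes real changes. Of the 44 members, 33 were above the array median on all 6 arrays, 9 on some arrays, and 2 (Oasl2 and Mx2) on none. Ratios of signals below the array median had wide spreads. All 10 measured T cell markers were above the array median on all 6 arrays, with summed signals of 63377 to 97742. Of the 6 measured B cell markers none was above it on all arrays (summed signals 207 to 334), and likewise of the 6 dendritic cell markers (205 to 314). Of 10 myeloid markers only Cd68 was (378 to 696). In bulk RNA, fewer cells expressing a gene and less RNA per cell cannot be told apart.

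Interferons signal through cell surface receptors and the JAK kinases. Type I interferon drives formation of ISGF3, a complex that includes Stat2 and Irf9 and binds the interferon-stimulated response element (ISRE). Type II interferon, or interferon gamma, acts on genes with a gamma-activated site (GAS), and Irf1 and Irf8 extend that response. Activated T cells, Th1 cells above all, are themselves a source of interferon gamma, whereas GATA3 is the lineage factor of Th2 cells.

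Promoter sequences were available from RefSeq (build GRCm38.p6) for 32 of the 44 members, each a window of 300 bases from 250 before to 50 after an annotated start. Both strands were searched for an ISRE core, GAAA and GAAA with any 2 bases (NN) between them, and for a GAS, TTCNNNGAA. An ISRE core was found in 16 of the 32 members (50%), against 3.99% of all 27025 genes with a promoter window. A GAS was found in 11 of the 32 (34.4%), against 9.55% of all genes. The motifs overlapped in 1 member window, that of Bst2. In 42 other interferon-stimulated genes with a promoter window the shares were 38.1% for the ISRE core and 9.52% for the GAS. A match describes letters in the window and does not show that a factor binds there.

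The promoters of 5 members are printed, since their genes carry the results below: the sensors Ifih1 and Rigi, whose stimulation ratios had opposite signs, Irf8, and the GTPase genes Igtp and Irgm2, which hold both motifs. Capitals mark the ISRE cores and GAS sites found on either strand, and each sequence runs 5′ to 3′ on the gene's strand. The Ifih1 window is chr2:62646206-62646505 (minus strand), with an ISRE core starting 33 bases after the start site. The Irf8 window is chr8:120736108-120736407 (plus strand), with GAS sites starting at -171 and -153. The Rigi window is chr4:40239776-40240075 (minus strand), with an ISRE core starting 3 bases after the start site. The Igtp window is chr11:58199306-58199605 (plus strand), with a GAS at -45 and an ISRE core at -34. The Irgm2 window is chr11:58214727-58215026 (plus strand), with the same pair of motifs at the same spacing, at -75 and -64.
Ifih1: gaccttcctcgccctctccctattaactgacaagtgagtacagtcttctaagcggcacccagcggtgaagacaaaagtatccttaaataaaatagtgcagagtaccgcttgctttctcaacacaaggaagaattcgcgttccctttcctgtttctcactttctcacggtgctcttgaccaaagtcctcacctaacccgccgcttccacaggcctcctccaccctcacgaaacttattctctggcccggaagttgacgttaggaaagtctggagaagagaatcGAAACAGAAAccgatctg
Irf8: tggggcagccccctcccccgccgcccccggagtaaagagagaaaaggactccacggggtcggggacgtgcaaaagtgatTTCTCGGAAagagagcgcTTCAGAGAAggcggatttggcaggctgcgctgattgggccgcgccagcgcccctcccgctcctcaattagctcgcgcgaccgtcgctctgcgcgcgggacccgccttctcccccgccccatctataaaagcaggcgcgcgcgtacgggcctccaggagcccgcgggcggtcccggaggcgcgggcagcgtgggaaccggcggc
Rigi: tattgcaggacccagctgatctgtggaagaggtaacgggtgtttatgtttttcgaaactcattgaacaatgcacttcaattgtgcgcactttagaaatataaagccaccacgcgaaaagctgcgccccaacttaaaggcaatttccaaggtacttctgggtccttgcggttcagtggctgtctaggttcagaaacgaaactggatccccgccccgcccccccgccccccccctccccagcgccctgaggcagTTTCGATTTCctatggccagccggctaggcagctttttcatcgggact
Igtp: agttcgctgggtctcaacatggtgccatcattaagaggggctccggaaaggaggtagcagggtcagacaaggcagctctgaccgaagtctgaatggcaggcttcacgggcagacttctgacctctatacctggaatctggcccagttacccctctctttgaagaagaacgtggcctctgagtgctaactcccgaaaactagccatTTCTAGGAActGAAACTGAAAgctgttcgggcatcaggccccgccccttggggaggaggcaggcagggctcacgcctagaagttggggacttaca
Irgm2: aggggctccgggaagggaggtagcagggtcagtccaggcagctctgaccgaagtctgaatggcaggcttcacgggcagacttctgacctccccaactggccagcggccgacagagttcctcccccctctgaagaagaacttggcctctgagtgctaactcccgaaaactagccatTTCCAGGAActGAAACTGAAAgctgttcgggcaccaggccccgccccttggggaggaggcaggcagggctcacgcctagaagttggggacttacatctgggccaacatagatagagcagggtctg

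**Figure D1:**
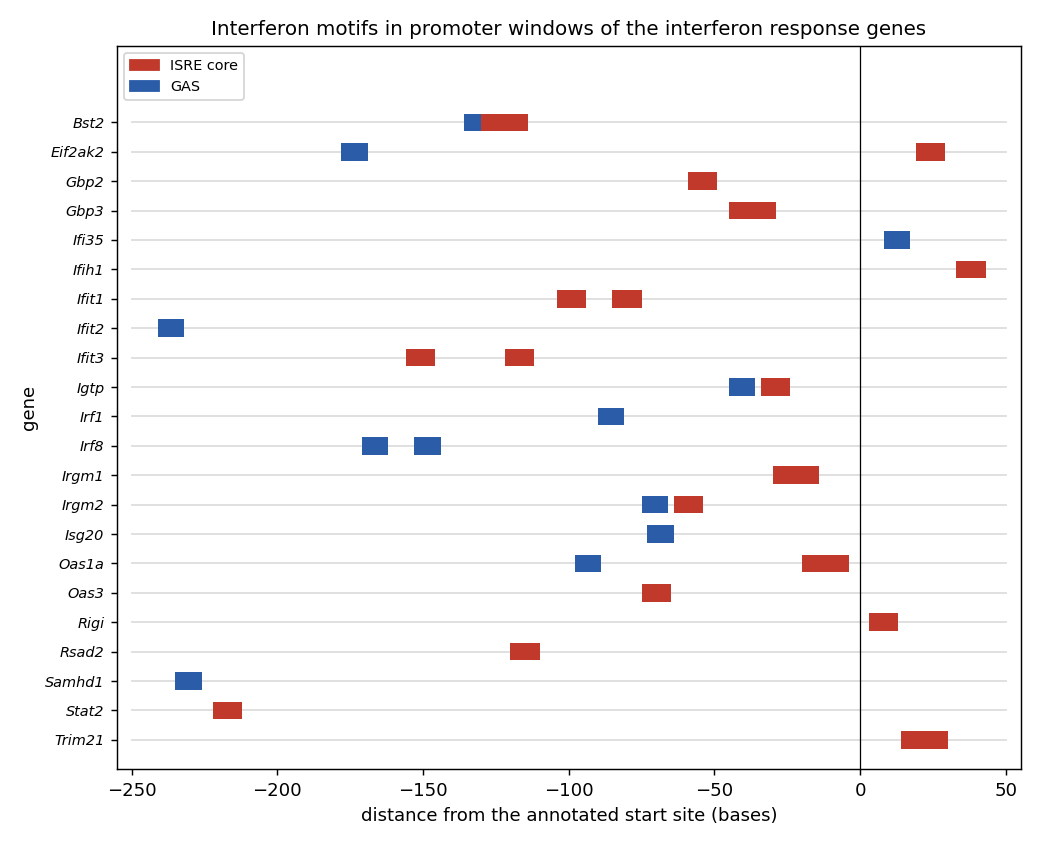
Positions of the motifs in the promoter windows of the members that hold at least 1 of them, with genes on the vertical axis and the distance in bases from the annotated start site on the horizontal axis. Red boxes are ISRE cores and blue boxes are GAS sites, and 22 members are drawn.

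The first comparison asked how the interferon response genes read after knockdown of GATA3 in stimulated cells. Gata3 itself read 2853 with GATA3 siRNA against 9261 with control siRNA in Th2-4th cells, and 1798 with GATA3 siRNA against 4883 with control siRNA in Th2-1st cells. Few interferon response genes passed 2-fold in either culture, and all that did belonged to the IFIT and OAS group. Of these only Oas1a was above the array median on all arrays. In Th2-4th cells none of the 44 members was over 2-fold higher with GATA3 siRNA and 3 were under 0.5-fold, against 10.6% and 10.6% of all genes (21.2% in either direction). In Th2-1st cells 4 members were over 2-fold and 1 was under 0.5-fold, against 13.3% and 7.49% of all genes (20.8% in either direction). When each array was centred on its own median, the split in Th2-1st cells was 2 over and 1 under. The median log2 ratio of the members was -0.0023 in Th2-4th cells and 0.10 in Th2-1st cells, beside 0.0072 and 0.05 over all genes. Among members above the array median on at least 1 array of the pair, the calls were 2 of 41 in Th2-4th cells (Oas2 and Oas3, both lower) and 3 of 39 in Th2-1st cells (Oas1a, Oas2 and Oas3, all higher). In that set 3% of genes were over 2-fold and 3.49% under 0.5-fold in Th2-4th cells, and 4.41% and 2.26% in Th2-1st cells. Counted by the spread, 17 of 44 members in Th2-4th and 26 in Th2-1st cells had a log2 ratio larger than it in size. The same held for 6089 and 6241 of all 18194 genes. No member passed 2-fold in the same direction in both cultures, where 3.01% of all genes were over 2-fold in both and 1.9% under 0.5-fold in both.

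**Figure D2:**
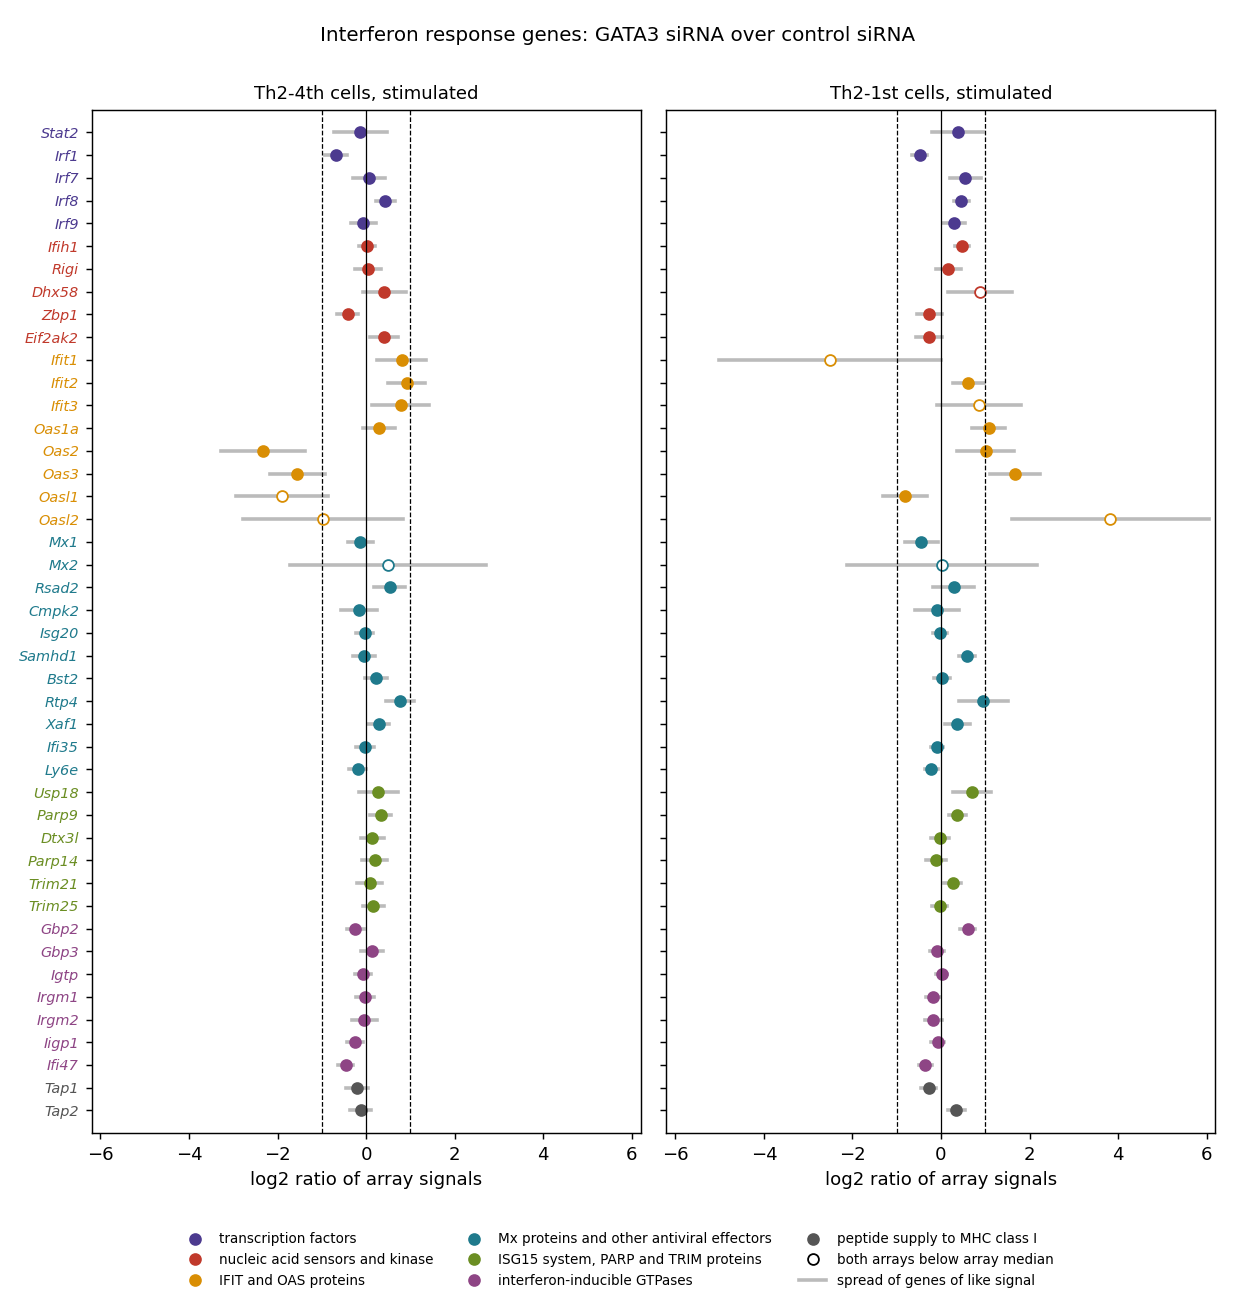
Log2 ratio of GATA3 siRNA over control siRNA for each of the 44 members, in stimulated Th2-4th cells (left) and Th2-1st cells (right). Points are coloured by role, open points were below the array median on both arrays, grey bars span 1 spread of genes of like signal to each side, and dashed lines mark 2-fold. Most filled points lie between the dashed lines, and Oas2 and Oas3 lie on opposite sides in the cultures.

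Of the transcription factors, Irf1 and Irf8 had ratios of opposite sign. Irf1 is an activator of interferon and MHC class I genes that interferon gamma induces. Irf1 read 2181 with GATA3 siRNA, 3479.9 with control siRNA and 3678 without stimulation in Th2-4th cells, and 2503 with GATA3 siRNA, 3501 with control siRNA and 1823 without stimulation in Th2-1st cells. With GATA3 siRNA it was thus lower in both cultures, at 0.627-fold in Th2-4th cells (log2 ratio -0.67, spread 0.25) and 0.715-fold in Th2-1st cells (log2 ratio -0.48, spread 0.17). Irf8, a factor of myeloid and B cell development that activated T cells also express, had the reverse sign. Irf8 read 3723 with GATA3 siRNA, 2751 with control siRNA and 228 without stimulation in Th2-4th cells, and 4269 with GATA3 siRNA, 3106 with control siRNA and 574 without stimulation in Th2-1st cells. The GATA3 siRNA array was the higher of the stimulated arrays in both cultures (log2 ratios 0.44 and 0.46, spreads 0.22 and 0.17, in Th2-4th and Th2-1st cells). The other Irf8 probe set gave log2 ratios of -0.12 in Th2-4th cells and 0.41 in Th2-1st cells, so the sign held only in Th2-1st cells. Irf9, the DNA-binding subunit of ISGF3, had log2 ratios of -0.06 in Th2-4th and 0.29 in Th2-1st cells. Stat2, its partner, had -0.14 in Th2-4th and 0.38 in Th2-1st cells, and -0.11 and -0.39 by its other probe set. Irf7 read 293 with GATA3 siRNA, 279 with control siRNA and 146 without stimulation in Th2-4th cells, and 219 with GATA3 siRNA, 149.7 with control siRNA and 163 without stimulation in Th2-1st cells. Irf7, which amplifies type I interferon genes, had log2 ratios of 0.07 in Th2-4th and 0.55 in Th2-1st cells.

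The 5 nucleic acid sensors and kinase all stayed within 2-fold. Ifih1 encodes MDA5, a sensor of long double-stranded RNA. Ifih1 read 13708 with GATA3 siRNA, 13467 with control siRNA and 793 without stimulation in Th2-4th cells, and 4624 with GATA3 siRNA, 3332 with control siRNA and 228 without stimulation in Th2-1st cells. The stimulated signals of Th2-4th cells with GATA3 siRNA and control siRNA were close (log2 ratio 0.03), and in Th2-1st cells the GATA3 siRNA array was higher (log2 ratio 0.47, spread 0.16). Zbp1, a sensor of Z-form nucleic acid, was lower with GATA3 siRNA in both cultures, by less than 2-fold (log2 ratios -0.42 in Th2-4th and -0.27 in Th2-1st cells, spreads 0.25 and 0.28), and its other probe set gave -0.06 and -0.08. Eif2ak2 read 404 with GATA3 siRNA, 305 with control siRNA and 374 without stimulation in Th2-4th cells, and 320.3 with GATA3 siRNA, 384 with control siRNA and 349 without stimulation in Th2-1st cells. Eif2ak2, the kinase PKR that halts translation on sensing RNA, had log2 ratios of 0.40 in Th2-4th and -0.26 in Th2-1st cells, while its other probe sets were positive in both cultures (0.38 and 0.42 in Th2-4th, 0.26 and 0.09 in Th2-1st cells).

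The OAS genes encode synthetases of 2′-5′ oligoadenylate, which activates the nuclease RNase L. Oas3 read 41.4 with GATA3 siRNA, 122 with control siRNA and 387 without stimulation in Th2-4th cells, and 145 with GATA3 siRNA, 45.6 with control siRNA and 169.9 without stimulation in Th2-1st cells. Oas3 was 0.339-fold with GATA3 siRNA in Th2-4th cells (log2 ratio -1.56, spread 0.62) and 3.19-fold in Th2-1st cells (log2 ratio 1.67, spread 0.56). Oas2 read 16.4 with GATA3 siRNA, 82.2 with control siRNA and 67.5 without stimulation in Th2-4th cells, and 78.6 with GATA3 siRNA, 38.9 with control siRNA and 32.3 without stimulation in Th2-1st cells. Oas2 ran the same way, with log2 ratios of -2.32 (spread 0.95) and 1.01 (spread 0.64). In both genes the lower array of each pair was below its array median, so 1 side of each ratio is a dim signal. Oas1a read 329 with GATA3 siRNA, 268 with control siRNA and 185 without stimulation in Th2-4th cells, and 291 with GATA3 siRNA, 138 with control siRNA and 152 without stimulation in Th2-1st cells. Oas1a was above the array median on all arrays and was higher with GATA3 siRNA in both cultures, past 2-fold only in Th2-1st cells (log2 ratio 0.30, spread 0.36 in Th2-4th and log2 ratio 1.07, spread 0.37 in Th2-1st cells). Each of these 3 genes has 1 probe set, so no other probe set bears on them. Oasl1 had log2 ratios of -1.90 in Th2-4th cells, between signals below the array median, and -0.81 in Th2-1st cells. Oasl2 had -0.97 in Th2-4th and 3.83 in Th2-1st cells. Oasl2 was below the array median throughout.

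The IFIT proteins bind viral RNA that lacks host cap methylation or, for Ifit2, curb viral translation. Ifit2 read 256 with GATA3 siRNA, 136 with control siRNA and 355 without stimulation in Th2-4th cells, and 305 with GATA3 siRNA, 199 with control siRNA and 762 without stimulation in Th2-1st cells. With GATA3 siRNA it was higher in both cultures, within 2-fold (log2 ratio 0.91, spread 0.42 in Th2-4th and log2 ratio 0.62, spread 0.36 in Th2-1st cells). Ifit3 was higher in both, with log2 ratios of 0.79 in Th2-4th and 0.86 in Th2-1st cells, its Th2-1st signals being below the array median. Ifit1 had a log2 ratio of 0.81 in Th2-4th cells, and its -2.51 in Th2-1st cells came from signals of 3.86 against 22, both below the array median.

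The 11 measured Mx proteins and other antiviral effectors, the 6 of the ISG15, PARP and TRIM group, the 7 interferon-inducible GTPases and both TAP genes had no call in either culture. Within 2-fold, Rtp4, whose product limits enveloped viruses, was higher with GATA3 siRNA in both (log2 ratios 0.77 in Th2-4th and 0.95 in Th2-1st cells, spreads 0.31 and 0.56). Samhd1, a dNTP hydrolase that restricts retroviruses, had log2 ratios of -0.04 in Th2-4th cells and 0.59 (spread 0.18) in Th2-1st cells. Its other probe sets gave 0.24, -0.83, 0.17 and 0.37 in Th2-4th cells, and 0.13, 1.05, 0.38 and 0.12 in Th2-1st cells. Gbp2, a GTPase that acts on pathogen-containing vacuoles, had signs that differed (-0.24 in Th2-4th and 0.60 in Th2-1st cells). Ifi47, a GTPase of the IRG family, was lower in both cultures (log2 ratios -0.47 in Th2-4th and -0.36 in Th2-1st cells, spreads 0.17 and 0.15). Over all members, 16 were higher with GATA3 siRNA in both cultures, 13 were lower in both, and the remainder differed in sign.

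Ifng, the gene of interferon gamma, read 32458 with GATA3 siRNA against 38438 with control siRNA in Th2-4th cells (log2 ratio -0.24), and 23417 with GATA3 siRNA against 16961 with control siRNA in Th2-1st cells (log2 ratio 0.47). Ifnb1, Ifna2 and Ifna4, type I interferon genes, were at or below the array median on nearly all arrays, Ifnb1 reading 66.7 with GATA3 siRNA and 74.6 with control siRNA in Th2-4th cells. With GATA3 siRNA, 10.6% of all genes were over 2-fold and 10.6% under 0.5-fold in Th2-4th cells, and 13.3% and 7.49% in Th2-1st cells. Of 52 other interferon-stimulated genes measured, 2 were over and 2 under in Th2-4th cells, and 7 over and 1 under in Th2-1st cells. Among those above the array median, Herc6, an ISG15 ligase in mice (log2 ratios 0.69 in Th2-4th and 1.12 in Th2-1st cells), and the PARP family gene Parp12 (0.15 in Th2-4th and 1.05 in Th2-1st cells) were over 2-fold in Th2-1st cells only. So were Slfn4 (0.47 in Th2-4th and 3.91 in Th2-1st cells), Cxcl10 (0.96 and 1.24) and Tdrd7 (0.42 and 1.04). Slfn4 read 7.58 and Tdrd7 56.2 with control siRNA in Th2-1st cells, both below the array median. Ifi204 was over 2-fold in Th2-4th cells (1.93), over a control siRNA signal of 62.1 that was below the array median. Its Th2-1st signals were both below the median (log2 ratio 0.80, spread 1.61). Tnfsf10, which encodes the death ligand TRAIL, was under 0.5-fold in both cultures (log2 ratios -1.01 in Th2-4th and -1.97 in Th2-1st cells, spreads 0.22 and 0.28). None of the 14 measured genes of the MHC class I pathway passed 2-fold in either culture. Of 12 negative regulators of interferon signalling only Socs3 did, being lower in both cultures (log2 ratios -1.72 in Th2-4th and -1.29 in Th2-1st cells). The summed signal of the 6 mast cell and basophil markers was 357 with GATA3 siRNA against 1239 with control siRNA in Th2-4th cells, and 167 with GATA3 siRNA against 331 with control siRNA in Th2-1st cells. Of these markers 4 were below the array median on all arrays, and their part in the ratios was not tested.

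The second comparison was of stimulated with unstimulated control cells. Ifih1, Irf8 and Iigp1 were over 2-fold higher after 4 h of anti-TCR stimulation in both cultures, while Samhd1, Oas3, Ifit2, Cmpk2 and Rigi were lower in both. In Th2-4th cells 7 of 44 members were over 2-fold and 9 under 0.5-fold, against 18.7% and 21.6% of all genes (40.3% in either direction). In Th2-1st cells 4 were over 2-fold and 9 under 0.5-fold, against 17.5% and 16.9% of all genes (34.4% in either direction). The median log2 ratio of the members was -0.14 in Th2-4th cells and -0.03 in Th2-1st cells, beside -0.10 and -0.01 over all genes. Of members above the array median on at least 1 array of the pair, 6 of 41 were over and 9 under in Th2-4th cells. In Th2-1st cells 3 of 37 were over and 7 under. In that set 14.6% of genes were over 2-fold and 21% under 0.5-fold in Th2-4th cells, and 10.7% and 16.7% in Th2-1st cells. The cultures share no array in this comparison: 3 members were over 2-fold in both (8% of all genes), 5 were under 0.5-fold in both (9.27%), and 2 (Usp18 and the dim Oasl2) were past 2-fold in opposite directions (4.45%).

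**Figure D3:**
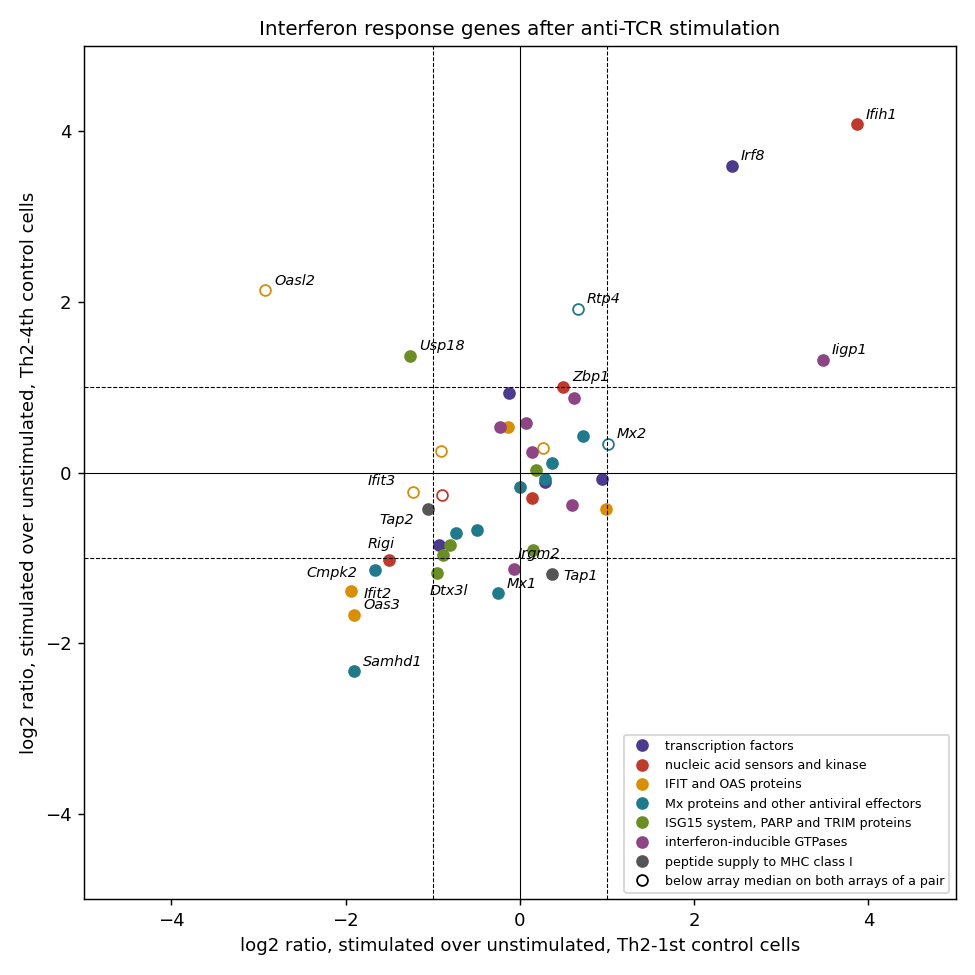
Log2 ratio of stimulated over unstimulated control cells for each of the 44 members, with Th2-1st cells on the horizontal axis and Th2-4th cells on the vertical axis. Points are coloured by role, open points were below the array median on both arrays of at least 1 pair, and dashed lines mark 2-fold. Ifih1, Irf8 and Iigp1 lie in the upper right, Samhd1, Oas3, Ifit2, Cmpk2 and Rigi in the lower left.

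Among the transcription factors only Irf8 passed 2-fold. It was 12.1-fold after stimulation in Th2-4th cells (log2 ratio 3.59, spread 0.91) and 5.41-fold in Th2-1st cells (log2 ratio 2.44, spread 0.74). Its other probe set gave log2 ratios of 3.04 in Th2-4th and 1.96 in Th2-1st cells. The Irf8 window printed above, with a pair of GAS sites, is 1 of 2 for this gene, and the other (chr8:120738389-120738688) holds neither motif. Irf1 was higher after stimulation only in Th2-1st cells (log2 ratio 0.94, spread 0.75), its unstimulated Th2-4th signal already standing at that of the stimulated arrays (log2 ratio -0.08). Irf7 was higher in Th2-4th cells by less than the spread (0.94, spread 0.99) and not in Th2-1st cells (-0.12). Stat2 had -0.85 in Th2-4th and -0.93 in Th2-1st cells (spreads 1.03 and 0.86), and its other probe set gave -0.11 in Th2-4th and 0.15 in Th2-1st cells.

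The RIG-I-like sensors moved apart. Ifih1 was 17-fold in Th2-4th cells (log2 ratio 4.09, spread 0.95) and 14.6-fold in Th2-1st cells (log2 ratio 3.87, spread 0.71). Rigi encodes the sensor of short 5′-triphosphate RNA and belongs to the same helicase family. Rigi read 618 with GATA3 siRNA, 597 with control siRNA and 1219.7 without stimulation in Th2-4th cells, and 397 with GATA3 siRNA, 354 with control siRNA and 999.8 without stimulation in Th2-1st cells. After stimulation Rigi stood at 0.49-fold in Th2-4th and 0.354-fold in Th2-1st cells (log2 ratios -1.03 in Th2-4th and -1.50 in Th2-1st cells, spreads 0.98 and 0.77). Its other probe sets had log2 ratios of -0.23 and -1.85 in Th2-4th cells and -0.97 and -2.26 in Th2-1st cells. Both genes have an ISRE core within 50 bases after the annotated start, as printed above. Zbp1 was 2.01-fold in Th2-4th cells, at the edge of a call, and 1.41-fold in Th2-1st cells.

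Of the effectors, Samhd1 and Cmpk2 were lower after stimulation in both cultures. Samhd1 read 1816 with GATA3 siRNA, 1873 with control siRNA and 9420.5 without stimulation in Th2-4th cells, and 1822 with GATA3 siRNA, 1208 with control siRNA and 4527 without stimulation in Th2-1st cells. Samhd1 was 0.199-fold in Th2-4th cells (log2 ratio -2.33, spread 0.86) and 0.267-fold in Th2-1st cells (log2 ratio -1.91, spread 0.79). All 4 of its other probe sets were lower in Th2-4th cells (log2 ratios -1.48, -1.79, -2.02 and -3.18), and 3 of them in Th2-1st cells (-1.31, -1.95 and -2.63, the remaining one at 0.31). Cmpk2 is a mitochondrial nucleotide kinase next to Rsad2 in the genome. Cmpk2 read 148 with GATA3 siRNA, 166 with control siRNA and 368 without stimulation in Th2-4th cells, and 94.1 with GATA3 siRNA, 100.0 with control siRNA and 316 without stimulation in Th2-1st cells. The unstimulated array was the highest of its culture in each case (log2 ratios -1.14 in Th2-4th and -1.66 in Th2-1st cells). Ifit2 and Oas3, whose signals are given above, had log2 ratios of -1.38 and -1.66 in Th2-4th cells and -1.94 and -1.90 in Th2-1st cells.

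Rtp4 and Mx1 had calls in Th2-4th cells only. Rtp4 read 613 with GATA3 siRNA, 359 with control siRNA and 94.9 without stimulation in Th2-4th cells, and 113 with GATA3 siRNA, 58.3 with control siRNA and 36.8 without stimulation in Th2-1st cells. Rtp4 had log2 ratios of 1.92 in Th2-4th cells (spread 1.01) and 0.66 in Th2-1st cells, where both signals were below the array median. Mx1 encodes a dynamin-like GTPase against influenza viruses, and C57BL/6 mice carry a defective Mx1 gene that yields no working protein. Mx1 read 1146 with GATA3 siRNA, 1252 with control siRNA and 3336 without stimulation in Th2-4th cells, and 147 with GATA3 siRNA, 200.5 with control siRNA and 239 without stimulation in Th2-1st cells. Stimulated Th2-4th cells had 0.375-fold the unstimulated Mx1 signal (log2 ratio -1.41, spread 0.98), and in Th2-1st cells the log2 ratio was -0.25. Ly6e read 5435 with GATA3 siRNA, 6219 with control siRNA and 10123 without stimulation in Th2-4th cells, and 5393 with GATA3 siRNA, 6270.0 with control siRNA and 10453 without stimulation in Th2-1st cells. Ly6e, a membrane protein that inhibits coronavirus entry, was lower in both cultures by less than 2-fold with this probe set (log2 ratios -0.70 in Th2-4th and -0.74 in Th2-1st cells), while its other probe set passed 2-fold (-2.04 in Th2-4th and -1.79 in Th2-1st cells). Mx2 was below the array median on all arrays.

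Usp18, the protease that removes ISG15 and dampens type I interferon receptor signalling, differed between cultures. Usp18 read 143 with GATA3 siRNA, 118 with control siRNA and 45.7 without stimulation in Th2-4th cells, and 185 with GATA3 siRNA, 114 with control siRNA and 272 without stimulation in Th2-1st cells. Its log2 ratio was 1.37 in Th2-4th cells (spread 0.69), where the unstimulated array was below the array median, and -1.26 in Th2-1st cells (spread 0.85). This difference between cultures was not tested. The ADP-ribosyltransferase Parp9 and its partner Dtx3l, a ubiquitin ligase, were lower after stimulation in both cultures (log2 ratios -0.96 and -1.18 in Th2-4th, -0.88 and -0.95 in Th2-1st cells), and only Dtx3l in Th2-4th cells passed 2-fold. Trim25 read 2188 with GATA3 siRNA, 1961 with control siRNA and 1913 without stimulation in Th2-4th cells, and 1685 with GATA3 siRNA, 1722 with control siRNA and 1512 without stimulation in Th2-1st cells. Trim25, the ubiquitin ligase that activates RIG-I, had log2 ratios of 0.04 in Th2-4th and 0.19 in Th2-1st cells. Of its other probe sets, 1 gave 2.05 in Th2-4th and 0.97 in Th2-1st cells, so the probe sets of Trim25 do not give 1 answer.

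The immunity-related GTPases (IRG) and guanylate-binding proteins attack vacuoles that hold intracellular pathogens. Iigp1 read 6474 with GATA3 siRNA, 7756 with control siRNA and 3103 without stimulation in Th2-4th cells, and 4199 with GATA3 siRNA, 4434 with control siRNA and 398 without stimulation in Th2-1st cells. Iigp1 was 2.5-fold in Th2-4th cells (log2 ratio 1.32, spread 0.83) and 11.1-fold in Th2-1st cells (log2 ratio 3.48, spread 0.73), and its other probe set gave log2 ratios of 1.46 in Th2-4th and 3.94 in Th2-1st cells. By ratio, its stimulated signals lay closer together (1.75-fold in Th2-4th over Th2-1st cells) than the unstimulated ones (7.8-fold). Igtp and Irgm2, IRG genes close to each other on chromosome 11, did not follow Iigp1. Igtp read 8101 with GATA3 siRNA, 8498 with control siRNA and 11044 without stimulation in Th2-4th cells, and 7234 with GATA3 siRNA, 7135 with control siRNA and 4727 without stimulation in Th2-1st cells. Irgm2 read 1165 with GATA3 siRNA, 1196 with control siRNA and 2623 without stimulation in Th2-4th cells, and 792 with GATA3 siRNA, 892 with control siRNA and 931 without stimulation in Th2-1st cells. Both were lower after stimulation in Th2-4th cells, Irgm2 past 2-fold (log2 ratios -0.38 for Igtp and -1.13 for Irgm2), and in Th2-1st cells Igtp had 0.59 and Irgm2 -0.06. Gbp2 was higher in both cultures (0.88 in Th2-4th and 0.63 in Th2-1st cells, and 0.91 and 1.02 by its other probe set). Of the TAP peptide transporter, Tap1 was lower in Th2-4th cells and within 2-fold in Th2-1st cells. Tap1 read 2516 with GATA3 siRNA, 2896 with control siRNA and 6609.5 without stimulation in Th2-4th cells, and 3319.8 with GATA3 siRNA, 4019 with control siRNA and 3109 without stimulation in Th2-1st cells. Its log2 ratios were -1.19 (spread 0.85) and 0.37 (spread 0.67). Tap2, the other subunit, had -0.43 in Th2-4th and -1.06 in Th2-1st cells.

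Among members past 2-fold and above the array median, other probe sets above the median ran the same way past 2-fold in 8 of 10 cases in Th2-4th cells and in 6 of 8 in Th2-1st cells. In Th2-1st cells 1 Samhd1 probe set ran the other way.

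The genes upstream of the response were read alongside. Ifng read 38438 with stimulation against 70.1 without it in Th2-4th cells, and 16961 with stimulation against 23.3 without it in Th2-1st cells, both unstimulated arrays being below their medians. Of 10 measured receptor and JAK-STAT genes, 1 was over 2-fold and 3 were under 0.5-fold in Th2-4th cells, and 1 over and 5 under in Th2-1st cells. Jak2, the kinase bound to the interferon gamma receptor, was the one that was higher (log2 ratios 2.36 in Th2-4th and 2.40 in Th2-1st cells). Ifngr1, the ligand-binding chain of that receptor, was lower (-2.45 in Th2-4th and -1.73 in Th2-1st cells), as was Ifnar2 of the type I receptor (-1.41 in Th2-4th and -1.24 in Th2-1st cells). Of 12 negative regulators of interferon signalling, 2 were over 2-fold and 3 under 0.5-fold in Th2-4th cells, and 1 over and 2 under in Th2-1st cells. For both lists the shares of all genes were 18.7% over and 21.6% under in Th2-4th cells, and 17.5% and 16.9% in Th2-1st cells. Socs1, an inhibitor of JAK kinases, had 1.53 in Th2-4th and 0.21 in Th2-1st cells, and Socs3 had 3.62 in Th2-4th and 1.58 in Th2-1st cells. Sting1, the adaptor of cytosolic DNA sensing, was lower in both (-1.86 in Th2-4th and -1.71 in Th2-1st cells). The summed signal of the 5 measured CD8 T and NK cell markers was 2654 with stimulation against 616 without it in Th2-4th cells, and 1083 with stimulation against 597 without it in Th2-1st cells. Of these markers 3 were above the array median on all arrays and Ncr1 on none. Only Eomes (log2 ratios 2.95 in Th2-4th and 2.64 in Th2-1st cells) and Prf1 (2.53 and 2.12) passed 2-fold. Cd8a (0.81 in Th2-4th and 0.36 in Th2-1st cells) and Cd8b1 (0.56 and -0.13) stayed within it. The part of these markers in the stimulation ratios was not tested.

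The third comparison was of Th2-4th with Th2-1st cells, both with control siRNA. Here the interferon response genes leaned one way: most were higher in Th2-4th cells, with and without stimulation. With stimulation 33 of 44 members were higher in Th2-4th cells, as were 10010 of all 18194 genes. Of the members, 14 were over 2-fold and none under 0.5-fold, against 17.2% and 12.7% of all genes (29.9% in either direction). Without stimulation 37 of 44 were higher, as were 10586 of all genes, with 19 members over 2-fold and 4 under 0.5-fold, against 19.5% and 12.3% of all genes (31.8% in either direction). The median log2 ratio of the members was 0.75 with and 0.46 without stimulation, beside 0.10 and 0.17 over all genes. These counts depend on the scaling of the arrays. When each array was centred on its own median, 9 members were over 2-fold and 1 under with stimulation, and 8 over and 5 under without it, and the medians were 0.51 and 0.21 beside -0.14 and -0.07 over all genes. The next counts are of members above the array median on at least 1 array of the pair. Of these, 12 of 41 were over 2-fold with stimulation (11.4% of all such genes) and 18 of 39 without it (11.9%). This filter lets a gene in through its brighter array. Among the calls with stimulation, Rtp4, Dhx58, Ifit1, Oas3 and Oas2 had Th2-1st signals below the array median. Without stimulation Rtp4 and Dhx58 did. In the same sets 0 members with stimulation (7.93% of genes) and 3 without it (9.22%) were under 0.5-fold. The stimulated and unstimulated pairs share no array, and 9 members were over 2-fold in both, namely Ifih1, Dhx58, Zbp1, Oas2, Oas3, Mx1, Rsad2, Rtp4 and Xaf1, against 7.21% of all genes. Of these 9, Oas2 was below the array median on both unstimulated arrays. The Th2-1st signals of Rtp4 and Dhx58 were below it in both states, and those of Oas2 and Oas3 with stimulation. No member was under 0.5-fold in both, against 4.08% of all genes.

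**Figure D4:**
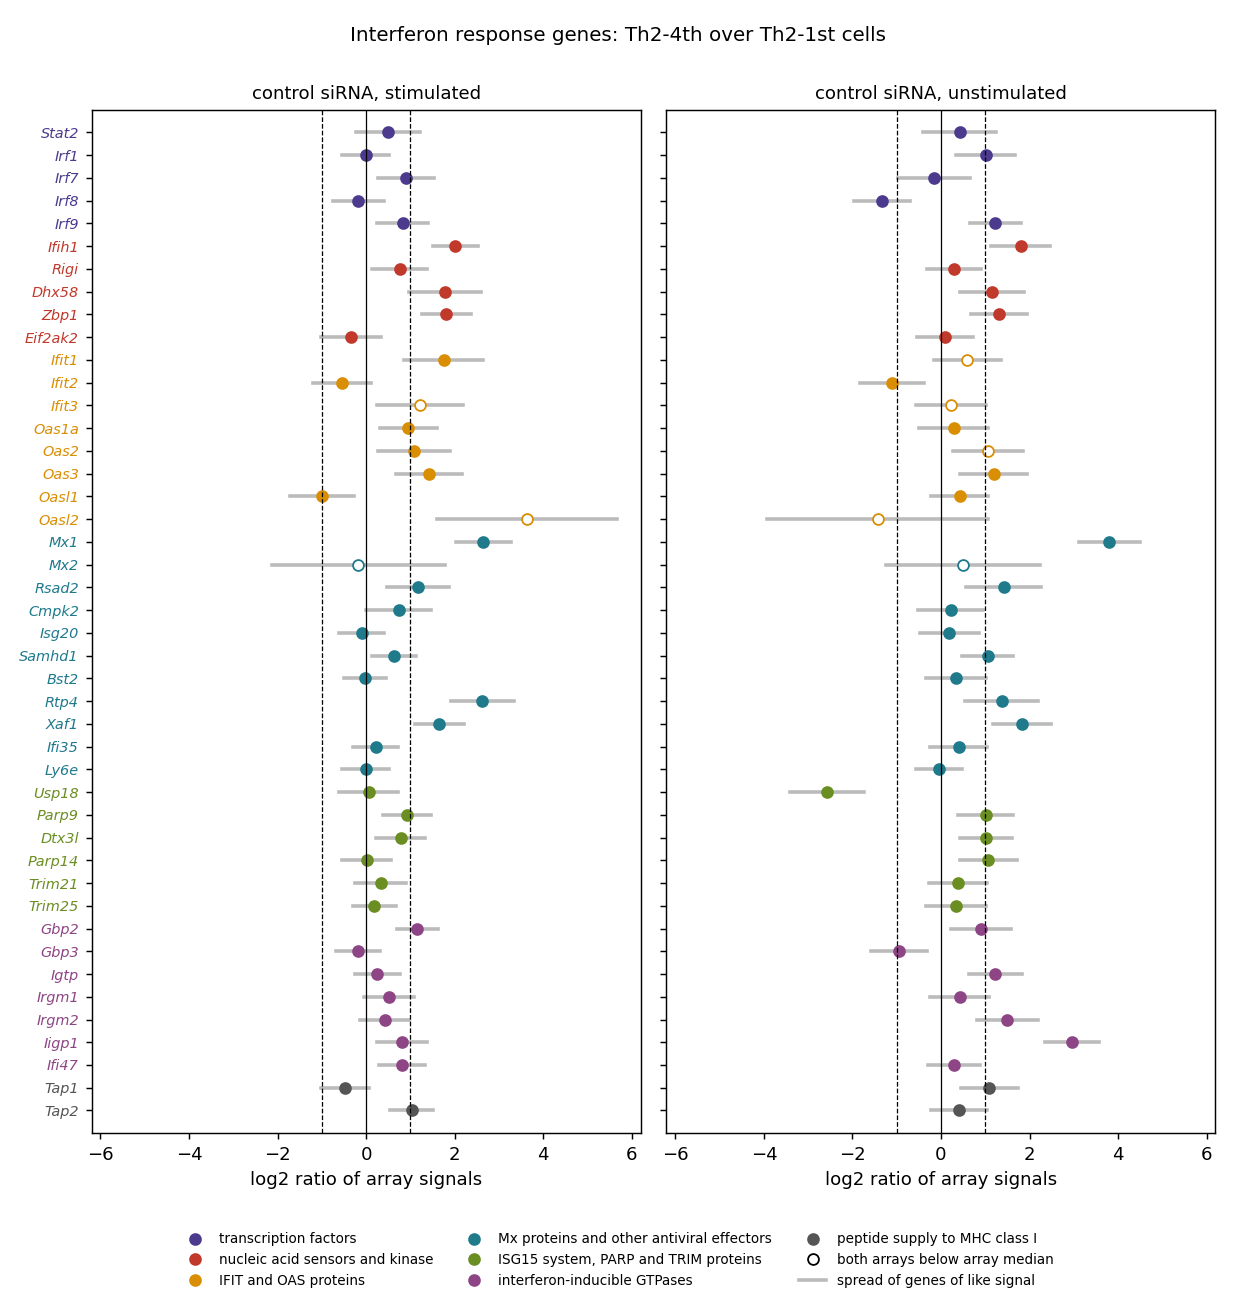
Log2 ratio of Th2-4th over Th2-1st control siRNA cells for each of the 44 members, with stimulation (left) and without it (right). Points are coloured by role, open points were below the array median on both arrays, grey bars span 1 spread of genes of like signal to each side, and dashed lines mark 2-fold. Most points lie to the right of 0 in both panels, with Mx1 at 2.64 and 3.80.

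Of the members above the array median Mx1 had the largest ratio. It was 6.25-fold higher in Th2-4th cells with stimulation (log2 ratio 2.64, spread 0.62) and 14-fold without it (log2 ratio 3.80, spread 0.70), and every Th2-4th array was above every Th2-1st array. The same held for Xaf1, an antagonist of the apoptosis inhibitor XIAP. Xaf1 read 1888 with GATA3 siRNA, 1552 with control siRNA and 2465 without stimulation in Th2-4th cells, and 638 with GATA3 siRNA, 493 with control siRNA and 693 without stimulation in Th2-1st cells. Its log2 ratios were 1.65 with and 1.83 without stimulation (spreads 0.56 and 0.65). Rtp4 had 2.62 with and 1.37 without stimulation, and Rsad2, which encodes viperin, a maker of a chain-terminating nucleotide, had 1.16 with and 1.42 without stimulation. Within the IFIT and OAS group, Oas3 had 1.42 with and 1.19 without stimulation, Oas2 1.08 with and 1.06 without stimulation, Ifit1 1.75 with and 0.60 without stimulation, and Oas1a 0.95 with and 0.29 without stimulation. Without stimulation the Oas2 and Ifit1 ratios were between signals below the array median. With stimulation the Oas2, Oas3 and Ifit1 ratios were over Th2-1st signals below it, as were both Rtp4 ratios. Ifit3 had 1.22 with and 0.22 without stimulation, from signals below the array median. Isg20, an exonuclease, Bst2, which tethers virus particles, Ifi35, Ly6e, Trim21, Trim25, Irgm1, Gbp3, Ifi47, Stat2, Irf7 and Eif2ak2 stayed within 2-fold in all 6 comparisons by the probe set used, and other probe sets of Ly6e and Trim25 did not.

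Of the sensors, 3 of 5 were over 2-fold in both states. Zbp1 read 1559 with GATA3 siRNA, 2086 with control siRNA and 1039 without stimulation in Th2-4th cells, and 494 with GATA3 siRNA, 595 with control siRNA and 421 without stimulation in Th2-1st cells. Zbp1 was 3.51-fold with and 2.47-fold without stimulation, its 3 Th2-4th signals being above its 3 Th2-1st signals, and its other probe set gave log2 ratios of 1.54 with and 1.12 without stimulation. Ifih1 was 4.04-fold with and 3.48-fold without stimulation (log2 ratios 2.01 with and 1.80 without stimulation, spreads 0.52 and 0.66). Dhx58 read 133 with GATA3 siRNA, 100.0 with control siRNA and 120.4 without stimulation in Th2-4th cells, and 53.6 with GATA3 siRNA, 29.2 with control siRNA and 54.1 without stimulation in Th2-1st cells. Dhx58, the RIG-I-like protein LGP2, had log2 ratios of 1.77 with and 1.15 without stimulation, and its Th2-1st signals were below the array median, so that these ratios have a weak denominator. Rigi had 0.76 with and 0.29 without stimulation.

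Some members passed 2-fold only without stimulation. Iigp1 was 7.8-fold higher in unstimulated Th2-4th cells (log2 ratio 2.96, spread 0.61) and within 2-fold with stimulation (0.81). Irgm2 (1.49 without, 0.42 with stimulation), Igtp (1.22 without, 0.25 with stimulation), Tap1 (1.09 without, -0.47 with stimulation) and Irf1 (1.01 without, -0.01 with stimulation) were of the same kind. Tap2 passed 2-fold only with stimulation (1.03, against 0.40 without it), while Gbp2 had 1.16 with and 0.91 without it, and 0.72 with stimulation by its other probe set. For Irf9 the log2 ratio was 1.23 without and 0.83 with stimulation. Parp9, Dtx3l and Parp14, at 1.01, 1.01 and 1.07 without stimulation, lay just past 2-fold, as did Samhd1 at 1.06. Whether the culture difference itself changed with stimulation was not tested.

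The exceptions were Irf8, Usp18 and Ifit2, which were under 0.5-fold in unstimulated Th2-4th cells. Usp18 had a log2 ratio of -2.58 (spread 0.83), Irf8 had -1.33 (spread 0.64) and Ifit2 had -1.10 (spread 0.72). With stimulation they were at 0.06, -0.18 and -0.55. Gbp3 read 1450.5 with GATA3 siRNA, 1317 with control siRNA and 906 without stimulation in Th2-4th cells, and 1409 with GATA3 siRNA, 1496 with control siRNA and 1749 without stimulation in Th2-1st cells. Gbp3, a guanylate-binding protein, was lower in unstimulated Th2-4th cells without passing 2-fold (-0.95). Oasl1 read 17.4 with GATA3 siRNA, 64.7 with control siRNA and 87.1 without stimulation in Th2-4th cells, and 73.2 with GATA3 siRNA, 129 with control siRNA and 65.1 without stimulation in Th2-1st cells. Oasl1, an inhibitor of Irf7 translation in mice, had -0.99 with stimulation, the lowest culture ratio among members above the array median there.

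**Figure D5:**
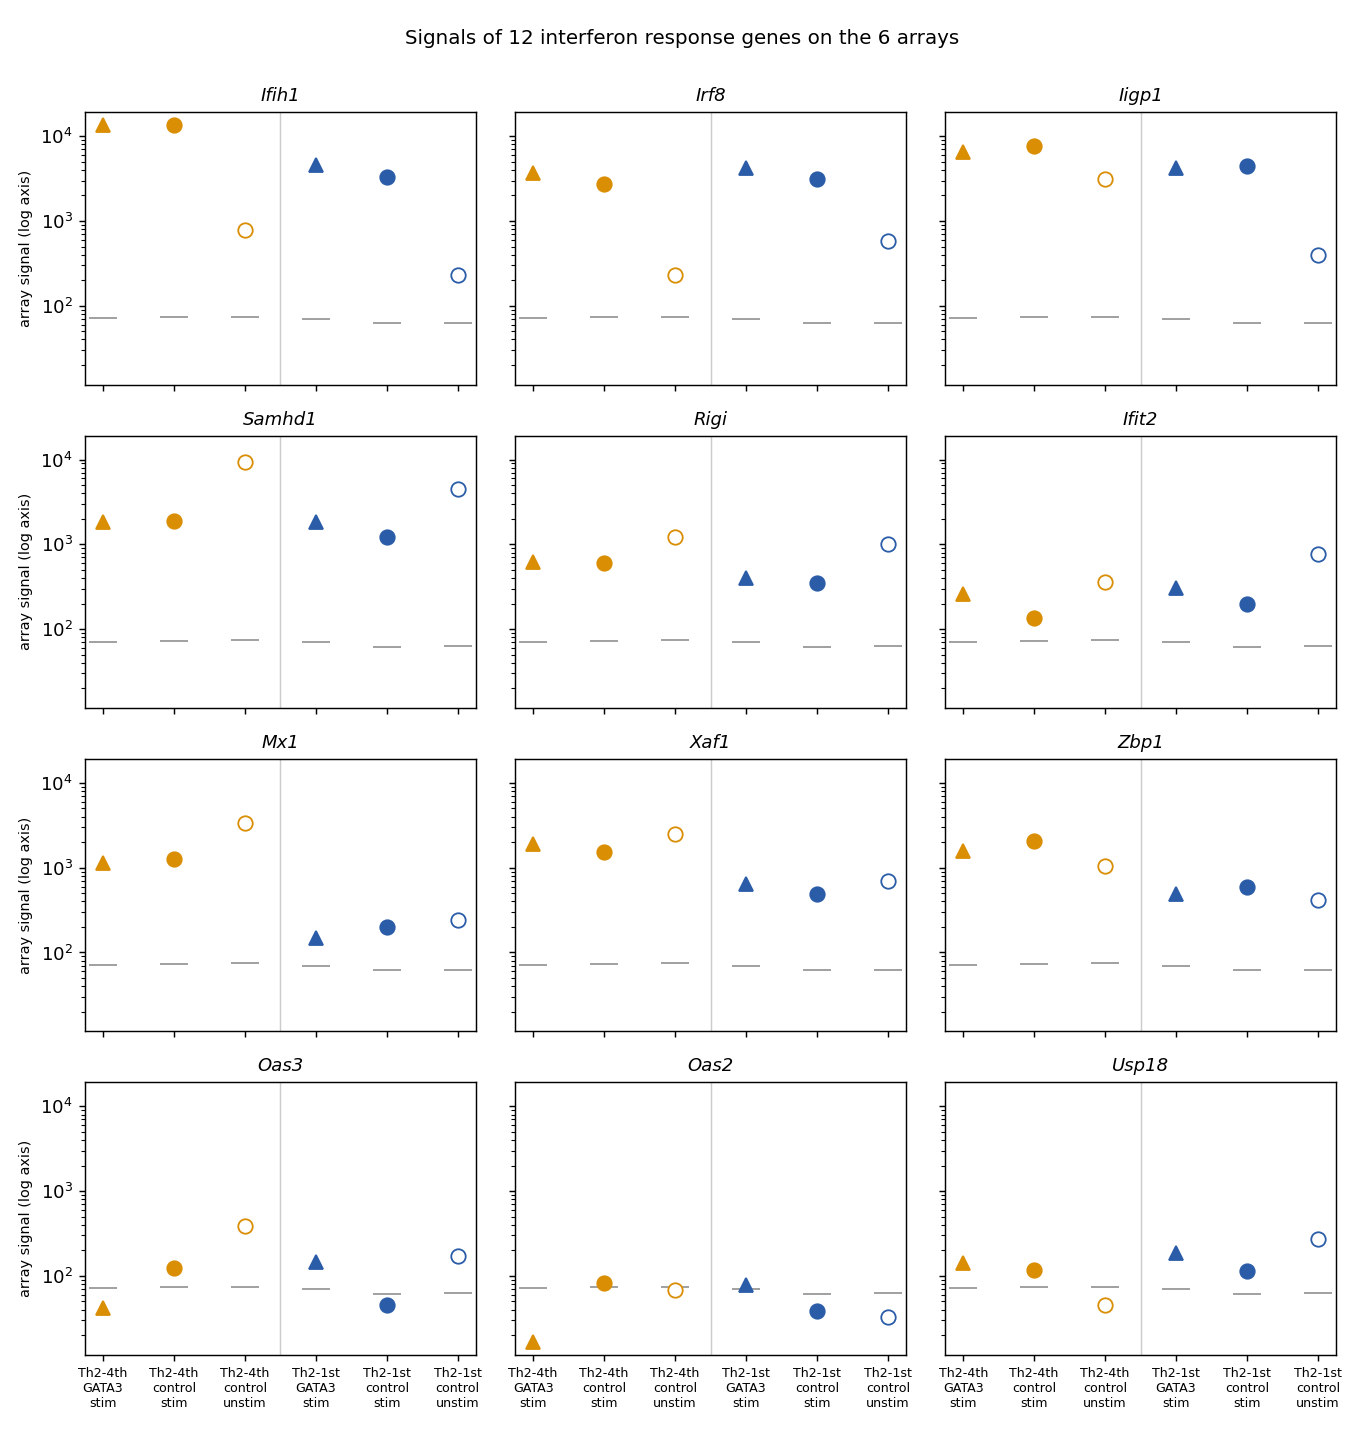
Array signals of 12 members on the 6 arrays, on a log axis. Triangles are GATA3 siRNA arrays, filled circles stimulated control siRNA arrays and open circles unstimulated control siRNA arrays, with Th2-4th cells in orange and Th2-1st cells in blue, and grey dashes mark each array's median signal. Ifih1, Irf8 and Iigp1 have their lowest signal on the unstimulated array of each culture, and Mx1, Xaf1 and Zbp1 have all Th2-4th signals above all Th2-1st signals.

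The other interferon-stimulated genes leaned the same way as the members. With stimulation 20 of the 52 measured were over 2-fold and 1 under 0.5-fold in Th2-4th cells, against 17.2% and 12.7% of all genes. Without it 26 were over and 0 under, against 19.5% and 12.3%. Their median log2 ratios were 0.86 with and 0.99 without stimulation. The transmembrane proteins Ifitm1, Ifitm2 and Ifitm3, which hinder virus entry, were examples. Ifitm1 read 24108 with GATA3 siRNA, 25928 with control siRNA and 28527 without stimulation in Th2-4th cells, and 3947 with GATA3 siRNA, 3504 with control siRNA and 3841 without stimulation in Th2-1st cells. Its log2 ratio was 2.89 with and 2.89 without stimulation, and those of Ifitm2 and Ifitm3 were 1.95 and 1.44 with stimulation. Trim34a (1.39 with and 1.66 without stimulation), Slfn1 (1.56 with and 1.39 without stimulation) and Gbp6 (1.18 with and 1.47 without stimulation) were over 2-fold in both states. Among 14 MHC class I genes 1 was over 2-fold with stimulation and 2 without it (H2-M3 in both, and Nlrc5, the class I transactivator), and none under 0.5-fold. Of the 10 receptor and JAK-STAT genes only Jak1 with stimulation passed 2-fold (1.02), and the 7 reference genes had median log2 ratios of 0.00030 with and 0.13 without stimulation.

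Other marker levels moved between the cultures as well. The summed signal of the 10 T cell markers was 97278 in stimulated Th2-4th against 65926 in stimulated Th2-1st cells, and 94880 in unstimulated Th2-4th against 63377 in unstimulated Th2-1st cells. The myeloid marker sum was 449 in stimulated Th2-4th against 415 in stimulated Th2-1st cells, and 696 in unstimulated Th2-4th against 449 in unstimulated Th2-1st cells. Cd68 had log2 ratios of 1.07 with and 1.30 without stimulation, and Adgre1 had -1.10 with and -0.07 without it. Lyz2, Itgam, Mpeg1, S100a8 and S100a9 were below the array median on all arrays. Of the 10 myeloid markers 6 were higher and 4 lower in Th2-4th cells with stimulation, and 5 higher and 5 lower without it. The dendritic cell marker sum was 314 in stimulated Th2-4th against 286 in stimulated Th2-1st cells, and 272 in unstimulated Th2-4th against 205 in unstimulated Th2-1st cells, with Itgax, Flt3 and Xcr1 below the array median on all arrays. Ifng read 38438 in stimulated Th2-4th against 16961 in stimulated Th2-1st cells (log2 ratio 1.18), and 70.1 in unstimulated Th2-4th against 23.3 in unstimulated Th2-1st cells. The sum of CD8 T and NK cell markers was 2654 in stimulated Th2-4th against 1083 in stimulated Th2-1st cells, and 616 in unstimulated Th2-4th against 597 in unstimulated Th2-1st cells. Its members differed in sign. Prf1 had log2 ratios of 2.39 with and 1.97 without stimulation, and Eomes 1.06 with and 0.75 without it. Cd8a had 0.43 with and -0.02 without stimulation, and Cd8b1 -0.94 with and -1.63 without it. The sum of the 6 mast cell and basophil markers was 1239 in stimulated Th2-4th against 331 in stimulated Th2-1st cells, and 830.3 in unstimulated Th2-4th against 638 in unstimulated Th2-1st cells. Of these Mcpt8, a basophil protease, had log2 ratios of 6.84 with and 5.93 without stimulation, and 4 of the 6 were below the array median on all arrays. The part of these levels in the culture difference was not tested.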

How the data were processed

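RNA of 6 samples, 1 for each condition, was measured on Affymetrix mouse genome arrays. The authors made the deposited intensity values, linear and 1 per probe set, in Expression Console. Its settings and version are not given in sources used here. After trimming 2% of probe sets at each end, the mean intensity was 500.0 on all 6 arrays, so a common scaling had been applied before deposit.

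Of 45101 probe sets, the platform annotation tied 34958 to 1 gene, 932 to several and 9211 to none. Of the 34958, 34754 matched a RefSeq gene by gene ID. A gene was represented by its probe set of highest mean log2 signal (20 members had 2 or more). Log2 ratios were taken for 6 array pairs, and a ratio over 2-fold or under 0.5-fold was a call, as in the study. No filter was set on low signals, and counts among genes above the array median on at least 1 array of a pair are given beside. The spread was 1.4826 times the median absolute deviation among the genes nearest in signal.

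The members and the 22 gene lists, 7 of which sort the members by role, were chosen with earlier results of these data known. Signals on all arrays were printed for the gene of highest mean signal in each role group, for GATA3 siRNA calls above the array median, and for the 5 largest stimulation and culture ratios in each direction. Labels do not say whether the samples came from separate animals, and call the control siRNA cells also mock-transfected. Alternatives tried were averaging a gene's probe sets, omitting cross-hybridising probe sets, centring on each array's median, quantile normalization, a floor at the array median for low signals, and the signal filter. Computations used Python 3.11.15, numpy 2.4.6 and pandas 2.3.3, and matplotlib 3.10.9 drew the plots.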

Additional observations from a re-analysis of the deposited data

Results flagged for a closer look

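Some genes had ratios past 2-fold in opposite directions in the cultures. None of these differences was tested, since each condition has 1 array. For Oas3 the log2 ratio of GATA3 siRNA over control siRNA was -1.56 in Th2-4th cells and 1.67 in Th2-1st cells, a difference of -3.23. For Oas2 the log2 ratios were -2.32 in Th2-4th and 1.01 in Th2-1st cells, a difference of -3.34. In both genes 1 array of each pair was below its array median. For Usp18 the log2 ratio of stimulated over unstimulated cells was 1.37 in Th2-4th cells and -1.26 in Th2-1st cells, a difference of 2.63, with its unstimulated Th2-4th signal below the array median. For Oasl2 it was 2.14 in Th2-4th and -2.92 in Th2-1st cells, a difference of 5.06, and all of its signals were below the array median.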

How the results depend on the processing

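Counts of members past 2-fold in either direction were within 1.5 times the count given above in 30 of 36 combinations of comparison and alternative, and every median log2 ratio of the members moved by less than the members' median spread. Near 0, the median for GATA3 siRNA in Th2-1st cells was -0.07 with centring, beside 0.10. For GATA3 siRNA in Th2-1st cells the count of 5 became 3 with centring on each array's median, 2 with a floor at the array median and 3 among genes above that median. For GATA3 siRNA in Th2-4th cells the count of 3 became 0 with the floor. For Th2-4th over Th2-1st cells the count of 23 without stimulation became 13 with centring, and the count of 14 with stimulation became 8 with the floor. Of the recomputed ratios of members past 2-fold, 412 kept their direction and moved by less than the spread, 17 moved by more, and 4 turned sign, all with the floor: Ifit1 with GATA3 siRNA in Th2-1st cells (0.17), Mx2 with stimulation in Th2-1st cells (-0.0169), Oasl2 with stimulation in Th2-4th cells (-0.0261), and Oasl2 in unstimulated Th2-4th over Th2-1st cells (0.25). The signal filter gave 63 of the 412, and it leaves each ratio as it was by its construction. Averaging likewise cannot change the ratio of a member with 1 probe set. The floor removes ratios between dim signals by its construction, and centring gave a median over all genes of -0.07, where it had been 0.17, in the unstimulated culture comparison. Centring shifts every log2 ratio of a pair alike, so it cannot change the gap between members and all genes. No paired analysis was possible because each group has 1 array and the labels give no replicate numbers. Without replicate arrays the error of a value is unknown, and dim signals have wide spreads.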
